A study of Mus musculus with 6 samples.

Results

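The genes described here are 59 mouse genes of DNA replication and S phase, chosen by name from the machinery that licenses, starts and copies DNA and from the enzymes that supply it with nucleotides. The deposited table held all 59 among its 27179 genes, and all 59 passed the filter on low values that left 12037 genes for testing. They were measured in leukemia-initiating cells (LICs) of a mouse acute myeloid leukemia, sorted as YFP+Mac-1+c-Kit+ cells from bone marrow, and total RNA was sequenced. There were 3 libraries labelled Asic3-null (Asic3-/-), here called null 1 to 3, and 3 libraries labelled WT (Asic3+/+), called WT 1 to 3, all of strain C57BL/6 and given as 8 weeks old. In both groups the leukemia had been started by the same retrovirus, MSCV-MLL-AF9-IRES-YFP, which drives the MLL-AF9 fusion and marks infected cells with YFP, and the leukemia cells had grown in irradiated recipient mice. Every library therefore carries MLL-AF9, and the Asic3 genotype is the only labelled difference. The labels do not say that the libraries came from separate mice, so p values measure the spread between these libraries, which may be technical.

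DNA replication starts in G1 phase, when the origin recognition complex, CDC6 and CDT1 load the ring-shaped MCM2-7 helicase onto origins, a step called licensing that geminin blocks later in the cycle. At the start of S phase the kinase CDC7 with its partner DBF4, and cyclin E with CDK2, switch the helicase on together with CDC45 and the GINS complex, and the polymerases, the sliding clamp PCNA and its loaders follow at the fork. Many of these genes are transcribed together at the G1 to S transition under E2F factors and their RB family repressors, and their summed RNA is commonly read as a sign of cycling cells. In a bulk sample, fewer cells in S phase and less RNA per cell cannot be told apart.

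The letters that E2F factors bind were looked for in the RefSeq promoter windows of build GRCm38.p6, which run from 250 bases before to 50 bases after each gene's start. The letters searched were TTTCCCGC, TTTGGCGC, TTTCGCGC and TTTGCCGC on both strands, where matches to different words may share bases. A window was found for 48 of the 59 genes. Stretches of 48 bases before the start are shown for 6 genes, 3 of the helicase, 2 of licensing and 1 of polymerase alpha, written 5′ to 3′ on the gene's strand, and the capitals mark the matched letters.
Mcm5, chr8:75109340-75109387, plus strand: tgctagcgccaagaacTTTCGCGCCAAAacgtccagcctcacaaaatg
Mcm6, chr1:128359784-128359831, minus strand: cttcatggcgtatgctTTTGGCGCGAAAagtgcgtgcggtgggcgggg
Mcm7, chr5:138172017-138172064, minus strand: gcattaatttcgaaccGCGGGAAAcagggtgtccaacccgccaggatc
Cdc6, chr11:98907997-98908044, plus strand: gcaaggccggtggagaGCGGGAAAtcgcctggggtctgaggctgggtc
Orc1, chr4:108579406-108579453, plus strand: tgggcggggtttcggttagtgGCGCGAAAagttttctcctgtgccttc
Pola1, chrX:93632262-93632309, minus strand: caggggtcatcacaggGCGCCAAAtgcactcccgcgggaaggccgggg
In Mcm5 and Mcm6 the 12 capitals hold 2 overlapping matches, 1 on each strand. A match describes letters and is not shown to be a bound site.

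E2F letters stood in 17 of the 48 windows (35.4%), against 453 of 8889 windows of all tested genes (5.1%) and 704 of 27025 windows in the RefSeq table (2.6%). Genes of mitosis, which peak later in the cycle, gave the opposite picture. Only 1 of 25 mitosis genes with a window (4.0%) held E2F letters, while 18 of 25 (72.0%) held TTTGAA, the cell cycle homology region (CHR), on either strand. The CHR letters were in 7 of the 48 replication windows (14.6%), close to the 14.5% of all tested genes. In a wider list of 75 other replication genes, E2F letters were in 15 of 56 windows (26.8%) and CHR letters in 14 (25.0%). The contrast with the mitosis genes was thus less clear in that list. The letters CCAAT, the CCAAT box, were in 54.2% of replication windows, 76.0% of mitosis windows and 43.6% of the windows of all tested genes.

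**Figure D1:**
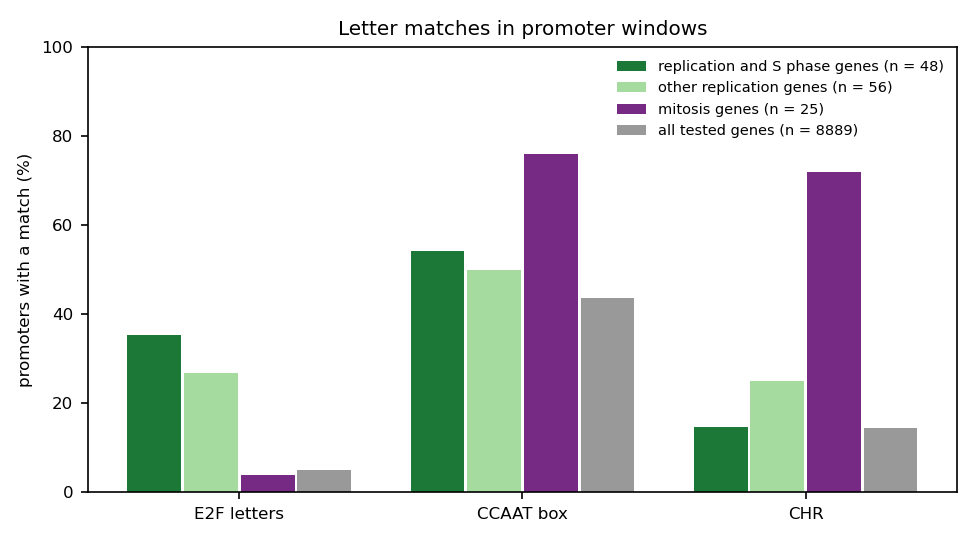
Share of promoter windows with at least 1 match, in percent, for E2F letters, the CCAAT box and the CHR in 4 sets of genes (bars, from 0, with the number of windows in the key). Replication and S phase genes have E2F letters in 35.4% of windows and mitosis genes have the CHR in 72.0%.

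The labels and the sort were checked before the replication genes. Asic3, the gene said to be deleted, was at 9.12, 4.11 and 6.58 RPKM in null 1, 2 and 3 and at 1.22, 1.85 and 0.435 RPKM in WT 1, 2 and 3, the opposite of the labels (log2 fold change 1.81, adjusted p = 0.026 by limma). The call on Asic3 was lost in 6 of 13 alternatives, with the sign kept, among them those without null 1, null 3, WT 1 or WT 3 (adjusted p by limma 0.0655 to 0.1). Cdk5 shares part of the span of Asic3, and the library kit does not mark strand. The values are per gene, so they do not show whether a deleted exon was absent. Xist RNA ranged from 46.5 to 71.9 RPKM in the null libraries and reached at most 0.0573 RPKM in the WT libraries, while 4 Y-linked genes summed to 0 and to 81.4 to 118 RPKM, so genotype and sex cannot be told apart. Itgam, which encodes the sorted marker Mac-1, was at 12.3 to 16.9 against 55.1 to 89.5 RPKM, and Kit at 14.4 to 20.4 against 8.97 to 15.3 RPKM. Of all 8 LIC and myeloid markers, 2 had a log2 fold change above 0, Kit and Meis1. Meis1 was at 21.7 to 35.3 against 14.0 to 14.9 RPKM (adjusted p = 0.0367 by limma, called in 6 of 14 alternatives). Hoxa9 was at 42.3 to 67.1 against 73.5 to 87.8 RPKM (adjusted p = 0.151 by limma) and Spi1 at 301 to 339 against 391 to 446 RPKM (adjusted p = 0.136 by limma). Cebpa, Mpo and Ptprc had log2 fold changes of -0.31, -0.61 and -0.38 with overlapping groups. All 10 neutrophil granule markers were lower, with sums of 324 to 509 against 4379 to 5320 RPKM. Erythroid markers summed to 0.97 to 2.41 against 2.84 to 10.3 RPKM with Slc4a1 at 0 throughout. T cell markers summed to 1.5 to 4.55 against 1.83 to 3.96 RPKM with Cd3e, Cd4 and Cd8a at 0. B cell markers summed to 37.3 to 47.6 against 42.0 to 50.0 RPKM with Ms4a1 at 0, and Cd79b made up 37.3 to 49.0 RPKM of them. Stroma and endothelium markers summed to 33.6 to 54.6 against 38.0 to 42.5 RPKM, of which Pecam1 alone made up 33.5 to 54.4 and 37.7 to 42.2 RPKM, and Cdh5, Col1a1, Col1a2 and Cxcl12 were at most 0.202 RPKM each. The part of these differences in the replication gene values was not tested.

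The levels of the replication genes ranged widely, with some under the median of all tested genes. RPKM, a read count scaled by gene length and library size, allows levels of different genes to be compared. The median mean level was 39.1 RPKM against 14.4 RPKM for all tested genes. The range ran from 4.37 RPKM for Mcm8 to 181 RPKM for Mcm6, a ratio of 41.4. Behind a gene's value stood 15 to 1588 reads inferred from the RPKM, with a median of 188.5 over genes and libraries.

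No replication or S phase gene passed the test between the groups. With limma on log2(RPKM + 1), 0 of the 59 had an adjusted p under 0.05, where 403 of all 12037 tested genes (3.35%) did. In the libraries labelled Asic3-null, 0.523% of all tested genes were called higher and 2.82% lower. The lowest adjusted p of the 59 was 0.232. At an unadjusted p under 0.05, 6 of the 59 (10.2%) were higher in the libraries labelled Asic3-null and 0 were lower, against 6.43% and 9.45% of all tested genes, and limma-voom on recovered reads gave 7 higher and 0 lower. The count of 6 higher was 1 without null 2, 2 without WT 1 or with no intensity trend, 3 without null 1 or with median-ratio scaling, and 9 without WT 3 or with quantile normalization. The 6 genes were Mcm8, Rrm1, Tk1, Pole3, Dbf4 and Tipin. The log2 fold change was above 0 for 55 of the 59 genes (93.2%), where 54.5% of all tested genes were, and its median was 0.25 against 0.03 for all tested genes. The groups did not overlap, with the null libraries higher, for 12 of 59 genes (20.3%), against 11.2% of all tested genes. The 95% interval included 0 for 53 genes and lay under a log2 fold change of 1, a doubling, for 56, so that a doubling lay within the interval for 3: Mcm8, Rrm1 and Pola1. All 59 intervals lay above -1, and their bounds ran from -0.73 to 1.24. These genes tend to be made in the same cells at the same time and are not independent of one another.

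**Figure D2:**
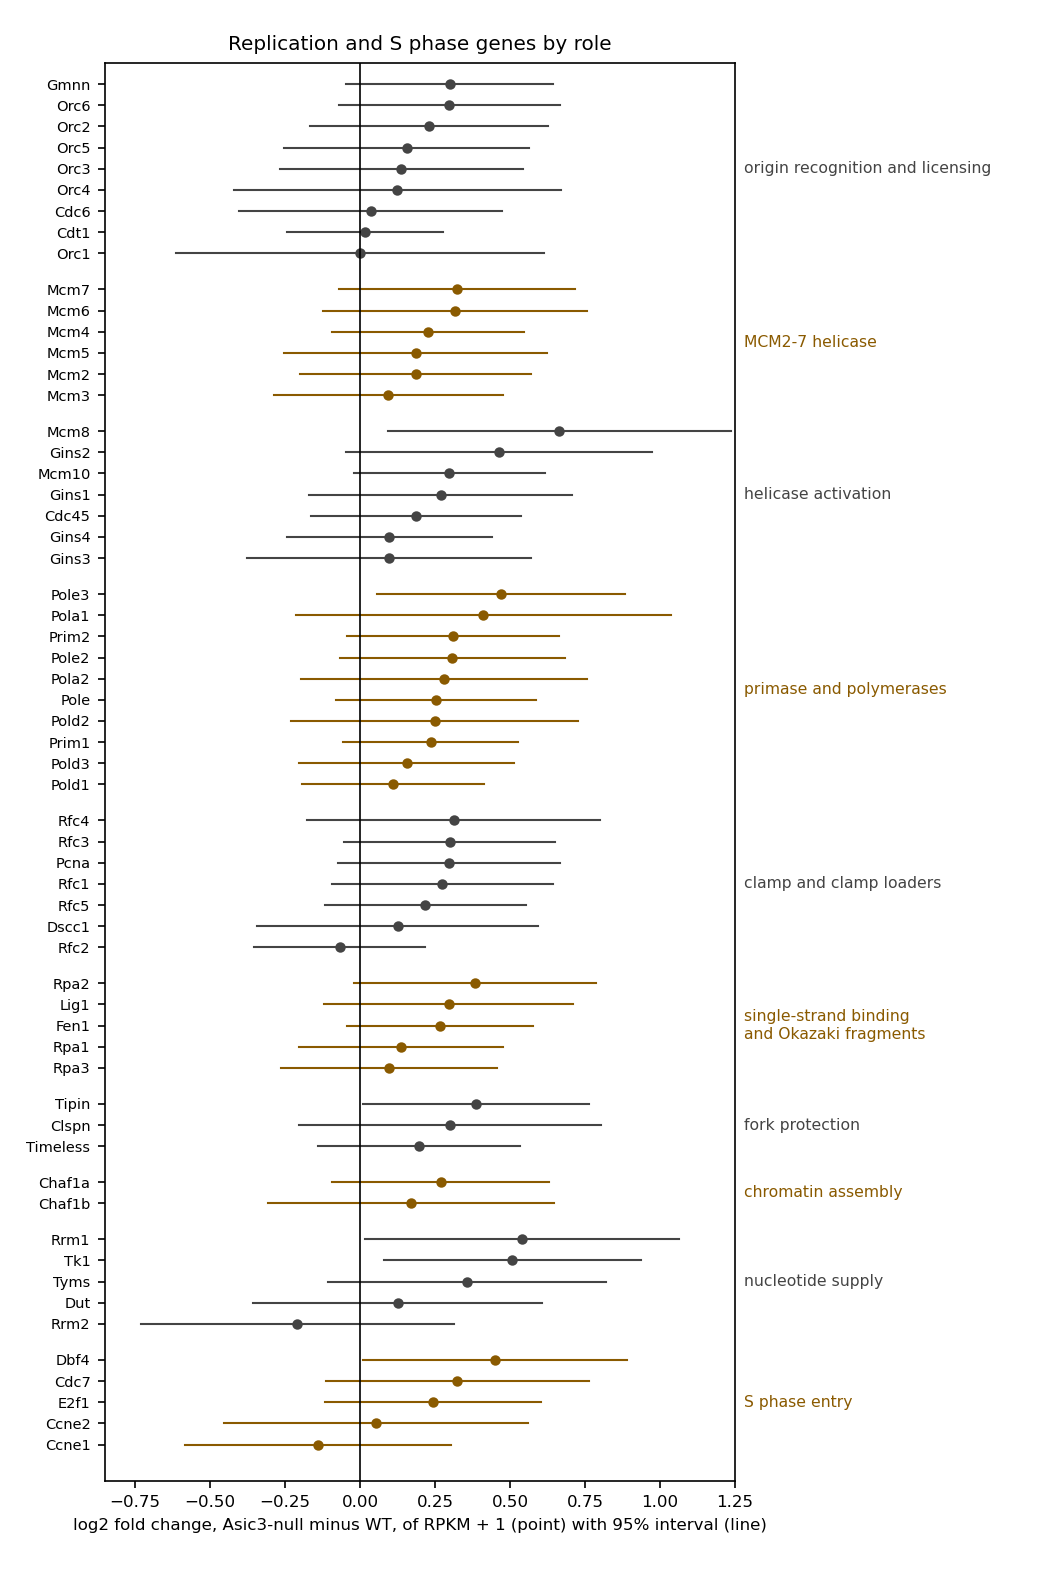
Log2 fold change of RPKM + 1, Asic3-null minus WT (points), with the 95% interval from limma (lines), for all 59 genes grouped by role. Most points lie to the right of 0, from -0.21 for Rrm2 to 0.66 for Mcm8, and 53 of the 59 lines cross 0.

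The 6 subunits of the MCM2-7 helicase, which opens the DNA ahead of the fork, had their lowest value in the same library, WT 1. Mcm6 (chromosome 1, 128331575 to 128359705) had 183, 229.8 and 185 RPKM in null 1, 2 and 3 and 118, 170.1 and 199 RPKM in WT 1, 2 and 3. Mcm7 had 118, 146 and 109 against 78.4, 111 and 109.8 RPKM. Null 2 was the highest of the 6 libraries and WT 1 the lowest for both genes, and the groups overlapped.

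Mcm2 had 91.7, 124 and 97.4 RPKM against 78.4, 86.2 and 111 RPKM. Mcm3 had 128, 157 and 133 RPKM against 105, 129.5 and 160.4 RPKM, the only subunit whose highest value was in a WT library. Mcm5 had 122, 161 and 131 RPKM against 91.0, 127 and 150.1 RPKM. Mcm4, the subunit with the lowest RPKM, was nearly level within the null group at 62.5, 65.7 and 65.4 RPKM, against 49.0, 52.1 and 65.2 RPKM. WT 1 was the lowest of all 6 libraries for each of the 6 subunits, and null 2 was the highest for 5. The log2 fold changes ran from 0.09 for Mcm3 (95% interval -0.29 to 0.48) to 0.32 for Mcm7 (95% interval -0.07 to 0.72), and their adjusted p values by limma from 0.404 to 0.831. The summed level of the complex was 705, 882 and 721 RPKM against 520.1, 676 and 795 RPKM, so WT 3 exceeded null 1 and null 3. Without WT 1 the log2 fold changes of Mcm3 and Mcm5 turned to -0.057 and -0.013. The counts of Mcm7 may hold reads of Ap4m1, Mir106b, Mir25 and Mir93, which overlap its span, since the library kit does not mark strand.

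Although the subunits work as a ring, their RPKM values were not equal. Mcm6 was the highest and Mcm4 the lowest in all 6 libraries, with a ratio of their means of 3.02 and a range of 2.41 to 3.5 over libraries. The means of subunits were also unequal in most of the other complexes. Orc6 stood 7.0-fold above Orc1 by mean RPKM, Prim1 5.99-fold above Pola1 of the polymerase alpha and primase complex, Gins4 5.94-fold above Gins3 and Rfc2 4.03-fold above Rfc1. The lowest subunit by mean was the lowest in 4 of 6 libraries for Orc1 and Rfc1, and Gins4 was the highest GINS subunit in 4 of 6. Rrm1 and Rrm2 had nearly equal means over the 6 libraries, at 1.04-fold, with Rrm1 the higher in 3 libraries. In the chromatin assembly factor, Chaf1a stood at 1.14-fold of Chaf1b by the means and at 1.04 to 1.3-fold over libraries.

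Of 9 origin recognition and licensing genes, 8 had a log2 fold change above 0, with a median of 0.14 and a range of -0.001 to 0.30. In none were the groups apart. Among all tested genes, 54.5% were above 0 and 22.6% had groups apart in either direction. Cdt1, the loader of the helicase, had 117, 124 and 111 RPKM in null 1, 2 and 3 and 109.6, 116 and 124 RPKM in WT 1, 2 and 3. Its log2 fold change of 0.01 had the narrowest 95% interval of the 59 genes, from -0.24 to 0.28.

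Gmnn, which encodes geminin, the inhibitor of CDT1, had 108, 114 and 81.5 RPKM against 75.9, 86.7 and 81.7 RPKM. Null 1 and null 2 lay above the WT libraries while null 3 lay among them. Cdc6, the ATPase that loads the helicase with CDT1, had 9.74, 14.4 and 13.0 RPKM against 10.2, 12.9 and 12.8 RPKM, with the lowest and the highest value both in the null group.

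Orc1, the largest subunit of the origin recognition complex, had 3.44, 6.96 and 6.36 RPKM against 5.52, 6.47 and 4.34 RPKM, from only 24 to 50 recovered reads. Orc4, another ATPase subunit, had 7.98, 4.13 and 6.42 RPKM against 5.73, 5.26 and 5.26 RPKM. Both genes spread over the null libraries by more than the group means differed, with a highest to lowest ratio of 2.03 for Orc1 and 1.93 for Orc4 against ratios of the group means of 1.03 and 1.14. Orc2, Orc3, Orc5 and Orc6 had log2 fold changes of 0.14 to 0.30. Among the licensing genes the sign of Cdt1, Cdc6, Orc1, Orc4 and Orc5 depended on single libraries, with values of -0.16 to 0.35 when each library was left out in turn.

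**Figure D3:**
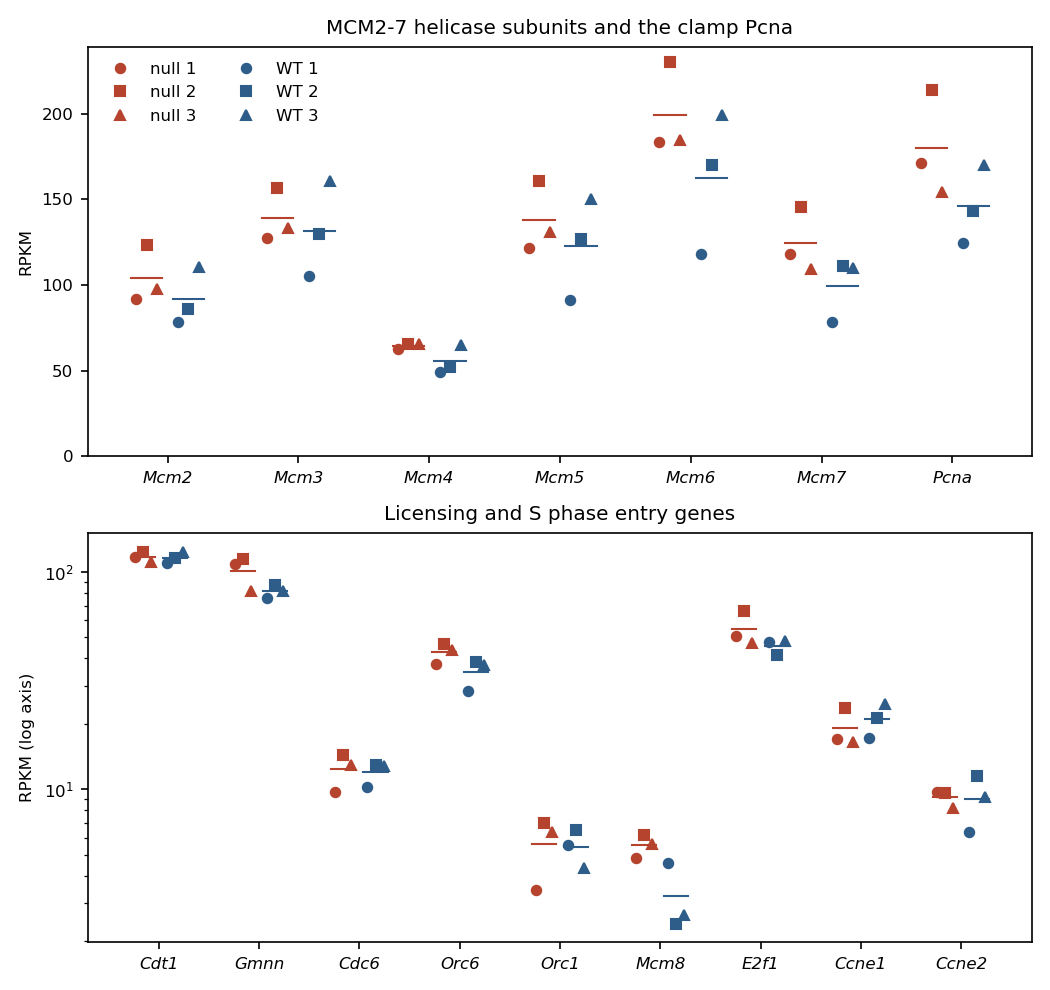
RPKM in each library (points, red for null 1 to 3 and blue for WT 1 to 3, with a shape per replicate) and group means (lines), for the MCM2-7 subunits and Pcna on a linear axis from 0 and for licensing and S phase entry genes on a log axis. WT 1 is the lowest point for all 6 MCM2-7 subunits and null 2 is the highest for 5, while Cdt1 lies between 109.6 and 124 RPKM in all libraries.

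Mcm8, an MCM relative known for repair by homologous recombination and listed here with the genes that activate the helicase, had the largest difference of the 59 genes, at 4.85, 6.16 and 5.58 RPKM in null 1, 2 and 3 and at 4.60, 2.41 and 2.64 RPKM in WT 1, 2 and 3 (log2 fold change 0.66, 95% interval 0.09 to 1.24, adjusted p = 0.242 by limma). The groups did not overlap, but WT 1 lay 0.25 RPKM under null 1, and the values rest on 15 to 47 recovered reads. Gins2, a subunit of the GINS complex, had 37.0, 52.2 and 37.3 RPKM against 26.6, 24.2 and 41.5 RPKM, where WT 3 lay above null 1 and null 3. Mcm10, which steadies the fork, had nearly equal null values of 26.9, 27.6 and 26.9 RPKM against 19.7, 22.2 and 24.1 RPKM, without overlap (adjusted p = 0.342 by limma). Cdc45, Gins1, Gins3 and Gins4 had log2 fold changes of 0.10 to 0.27 with overlapping groups.

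The 10 genes of primase and the polymerases all had log2 fold changes above 0, from 0.11 for Pold1 to 0.47 for Pole3, and 5 of them (50.0%) had groups without overlap, Prim1, Prim2, Pole, Pole2 and Pole3, where 11.2% of all tested genes were higher without overlap. Pole3, a histone-fold subunit of the leading strand polymerase epsilon, had 77.5, 71.8 and 72.9 RPKM against 39.5, 62.3 and 61.0 RPKM (log2 fold change 0.47, 95% interval 0.06 to 0.88, adjusted p = 0.252 by limma). Pole, the catalytic subunit, had 19.3, 16.4 and 18.3 RPKM against 14.6, 14.6 and 15.6 RPKM. For Pole3 the gap between the groups was 9.56 RPKM and for Pole 0.848 RPKM. Leaving out each library in turn gave Pole3 log2 fold changes from 0.26 without WT 1 to 0.582 without WT 2. Pola1, on the X chromosome and the only X-linked gene of the 59, had 9.61, 11.3 and 8.68 RPKM against 4.62, 11.0 and 6.95 RPKM, a 2.39-fold range within the WT group. The subunits of polymerase delta, which copies the lagging strand, overlapped between the groups, with log2 fold changes of 0.11 to 0.25.

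Pcna, the sliding clamp that holds the polymerase on DNA, had 171, 214 and 154 RPKM in null 1, 2 and 3 and 125, 143 and 170.3 RPKM in WT 1, 2 and 3 (log2 fold change 0.30, 95% interval -0.07 to 0.67). WT 3 lay between null 3 and null 1. Of the 6 clamp loader genes, Rfc2 was the only gene with a log2 fold change under 0, at 95.03, 109 and 96.8 RPKM against 94.6, 114 and 107 RPKM (log2 fold change -0.07, 95% interval -0.35 to 0.22). Rfc3 was the only one without overlap, at 40.3 to 52.9 RPKM against 32.1 to 40.0 RPKM. The other loaders, Rfc1, Rfc4, Rfc5 and Dscc1, had log2 fold changes of 0.12 to 0.31.

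At the lagging strand, Fen1, the flap nuclease that trims Okazaki fragments, had 51.7 to 64.3 RPKM against 43.8 to 50.3 RPKM, and Rpa2, of the single-strand binding protein RPA, had 67.6 to 87.9 RPKM against 45.1 to 65.4 RPKM, both without overlap. Rpa1, Rpa3 and the ligase gene Lig1 overlapped, with log2 fold changes of 0.14, 0.10 and 0.29. Among fork protection genes, Tipin had 88.4, 131 and 92.1 RPKM against 82.9, 72.1 and 79.2 RPKM (log2 fold change 0.39, 95% interval 0.01 to 0.76), without overlap. The log2 fold change of Tipin ran from 0.21 without null 2 to 0.491 without null 1 when each library was left out in turn. The partner of Tipin, Timeless, with a log2 fold change of 0.20, and the checkpoint mediator Clspn, with 0.30, overlapped. The chromatin assembly genes Chaf1a and Chaf1b had log2 fold changes of 0.27 and 0.17. Fen1 overlaps Tmem258 and Lig1 overlaps Zswim9, and they are among 16 of the 59 genes whose span is shared with another gene at 1 RPKM or more.

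Of the 5 genes of nucleotide supply, 4 had a log2 fold change above 0 and none passed the test, against 54.5% and 3.35% of all tested genes. Rrm1 (chromosome 7, 102441695 to 102469771), the large subunit of ribonucleotide reductase, had 96.2, 105 and 87.7 RPKM in null 1, 2 and 3 and 43.9, 74.0 and 87.2 RPKM in WT 1, 2 and 3 (log2 fold change 0.54, 95% interval 0.02 to 1.06, adjusted p = 0.298 by limma). The groups did not overlap, by a margin of 0.498 RPKM between null 3 and WT 3. Rrm2 (chromosome 12, 24708254 to 24714146), the small subunit, which is made mainly in S phase, had 64.8, 85.1 and 67.6 RPKM against 58.0, 88.3 and 113 RPKM (log2 fold change -0.21, 95% interval -0.73 to 0.31, adjusted p = 0.706 by limma), the lowest fold change of the 59. When each library was left out in turn, the log2 fold change of Rrm1 ran from 0.255 without WT 1 to 0.742 without WT 3. Without WT 3 the log2 fold change of Rrm2 was 0.007. WT 1 was the lowest and WT 3 the highest of the WT libraries for both subunits.

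The ratio of Rrm1 to Rrm2 RPKM, chosen after its values were seen and not tested, was 1.48, 1.24 and 1.30 in null 1, 2 and 3 and 0.757, 0.838 and 0.773 in WT 1, 2 and 3. The means were 1.34 ± 0.13 and 0.789 ± 0.043 (SD, n = 3 each), so that the ratio was higher in each null library than in each WT library. Which subunit's RNA was the more abundant depends on the gene lengths used for RPKM, whose annotation is not given. Of 64 pairs of subunits within 1 complex, 6 had ratios without overlap in either direction (9.38%). The share of single tested genes was 22.6%, which is not a rate for ratios, since ratios of other pairs were not computed. The pairs besides Rrm1 to Rrm2 were Mcm3 to Mcm6, Mcm5 to Mcm6, Rfc2 to Rfc3, Rfc2 to Rfc5 and Rpa1 to Rpa2. For these the null mean was 0.772 to 0.913 of the WT mean. Rrm1 to Rrm2, at 1.697, was the farthest from 1 of the 6 pairs.

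Tk1, the salvage enzyme thymidine kinase, had 97.5, 130.0 and 81.5 RPKM against 61.8, 69.4 and 82.7 RPKM (log2 fold change 0.51, 95% interval 0.08 to 0.94, adjusted p = 0.232 by limma, the lowest of the 59). Null 3 lay under WT 3, so the groups overlapped, and Afmid shares part of the span of Tk1. Tyms, thymidylate synthase, had 11.8, 17.4 and 14.2 RPKM against 8.74, 12.3 and 12.2 RPKM. Dut, the dUTPase that keeps uracil out of DNA, had 57.5 to 93.9 RPKM against 52.3 to 77.0 RPKM. The opposite role, breakdown of dNTPs, falls to Samhd1 (chromosome 2, 157097534 to 157135096), which is not one of the 59 and was taken from a wider list of 75 replication genes. Samhd1 was at 15.9, 17.1 and 17.1 RPKM against 52.5, 50.2 and 35.8 RPKM and fell in the libraries labelled Asic3-null (log2 fold change -1.40, 95% interval -1.78 to -1.01, adjusted p = 0.0032 by limma). The call on Samhd1 was kept in all 14 alternatives.

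**Figure D4:**
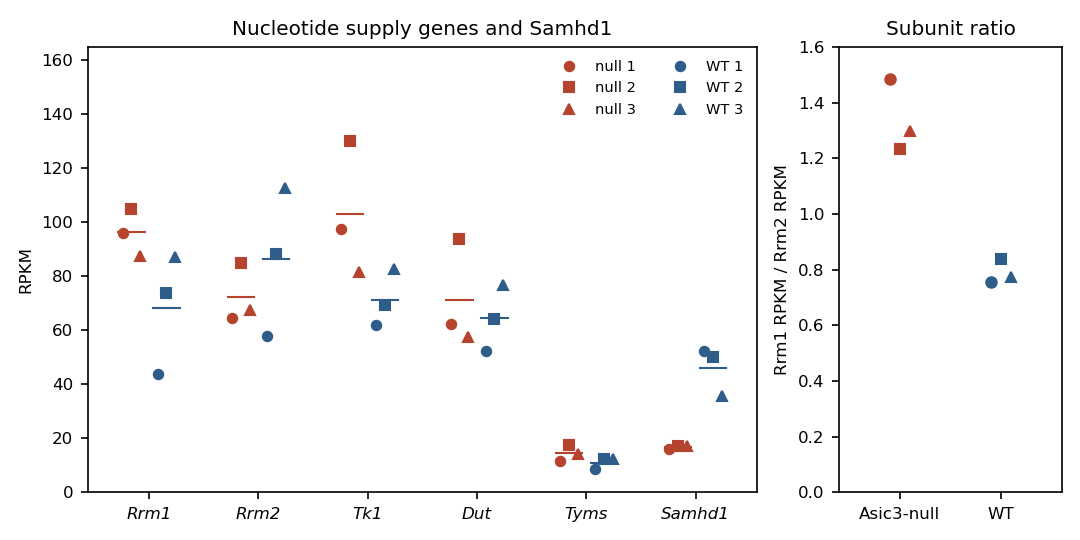
Left, RPKM in each library (points) and group means (lines) of the nucleotide supply genes and of Samhd1. Right, Rrm1 RPKM divided by Rrm2 RPKM in each library, at 1.24 to 1.48 in the libraries labelled Asic3-null and 0.757 to 0.838 in those labelled WT.

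Of the 5 genes of S phase entry, 4 had a log2 fold change above 0 and none passed the test, against 54.5% and 3.35% of all tested genes. Ccne1 and Ccne2, the E cyclins, had 17.0, 23.6 and 16.5 RPKM against 17.3, 21.3 and 24.6 RPKM, and 9.67, 9.66 and 8.21 RPKM against 6.36, 11.5 and 9.19 RPKM, respectively. Their log2 fold changes were -0.14 (95% interval -0.58 to 0.30) and 0.05 (95% interval -0.45 to 0.56), and neither set of WT libraries lay apart from the null libraries. E2f1, an activating E2F factor, had 50.6, 66.4 and 47.3 RPKM against 47.6, 41.5 and 48.1 RPKM, where null 2 alone stood clear of the other libraries. Dbf4, the partner that activates CDC7, had 46.3, 30.7 and 40.8 RPKM against 22.8, 31.3 and 31.1 RPKM (log2 fold change 0.45, adjusted p = 0.303 by limma). For Dbf4, null 2 was the lowest null library and lay under WT 2 and WT 3. Cdc7 had 9.06 to 13.9 RPKM against 8.52 to 9.70 RPKM.

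In the wider list of 75 replication genes, all of them tested, 3 passed the test and all 3 fell, 4.0% of the list against 3.35% of all tested genes called in either direction and 2.82% called lower. Besides Samhd1 these were regulators of the G1 to S step. E2f2 (chromosome 4, 136172274 to 136196057), another activating E2F factor, was at 13.8, 10.4 and 12.4 RPKM against 31.5, 22.5 and 25.8 RPKM (log2 fold change -1.06, adjusted p = 0.0156 by limma, called in 11 of 14 alternatives and lost without null 2, null 3 or WT 1 at adjusted p values of 0.051 to 0.0593). Ccnd3, cyclin D3, was at 71.8, 68.5 and 65.7 RPKM against 119, 92.9 and 111 RPKM (log2 fold change -0.63, adjusted p = 0.0373 by limma, called in 6 of 14 alternatives and lost without any 1 library but WT 2, with adjusted p values of 0.0875 to 0.14).

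Rb1, the retinoblastoma repressor of E2F factors, did not pass, at 4.90 to 6.91 RPKM against 10.1 to 10.7 RPKM (log2 fold change -0.78, adjusted p = 0.0616 by limma). At the other end of the list were Rad18, Fancd2 and Usp1, of damage tolerance and the Fanconi pathway, with log2 fold changes of 0.65, 0.54 and 0.53 and adjusted p values by limma of 0.0606, 0.175 and 0.0811. The groups did not overlap for any of these 4 genes. Top2a, the topoisomerase that untangles DNA, had 65.7, 92.6 and 101 RPKM against 39.6, 82.2 and 74.2 RPKM. The median log2 fold change of the 75 genes was 0.17, and 62 (82.7%) were above 0. For the 3 genes that fell, the neutrophil granule markers, with sums of 324 to 509 against 4379 to 5320 RPKM, went the same way between the groups, and their part in these values was not tested.

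The replication genes varied between libraries of the same group, and among the null libraries in another order than the genes of mitosis. Over the 59 genes the median log2 deviation from the mean of the 6 libraries was 0.07, 0.25 and 0.04 in null 1, 2 and 3 and -0.29, -0.05 and -0.02 in WT 1, 2 and 3. WT 1 was the lowest of the 6 libraries for 39 genes (66.1%), against 19.7% of all tested genes, and null 2 was the highest for 37 (62.7%), against 21.4%. For 28 genes of mitosis the medians were 0.42, 0.00 and 0.26 against -0.62, -0.04 and -0.04. WT 1 was again the lowest, for 25 of 28 genes (89.3%), but null 2 was the highest for 0 of the 28 and the lowest of its own group for 22.

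The summed level of the 59 genes was 3119, 3689 and 3016 RPKM in null 1, 2 and 3 and 2396, 2850 and 3132 RPKM in WT 1, 2 and 3. For the mitosis genes it was 1441, 1117 and 1332 RPKM against 698, 1079 and 1093 RPKM. The ratio of replication to mitosis sums was 2.16, 3.30 and 2.26 against 3.43, 2.64 and 2.86. Null 2 and WT 1 thus had the highest ratios, though they stood at opposite ends for the level of the replication genes, and the groups overlapped. Mki67, which encodes the proliferation marker Ki-67, ran from 18.1 RPKM in null 2 to 44.0 RPKM in null 1, with 31.2 RPKM in null 3 and 23.7, 40.7 and 23.7 RPKM in WT 1, 2 and 3 (log2 fold change 0.04, 95% interval -0.69 to 0.77). Ccnb1, cyclin B1, had 12.9, 11.6 and 13.2 RPKM against 7.19, 12.2 and 10.8 RPKM.

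**Figure D5:**
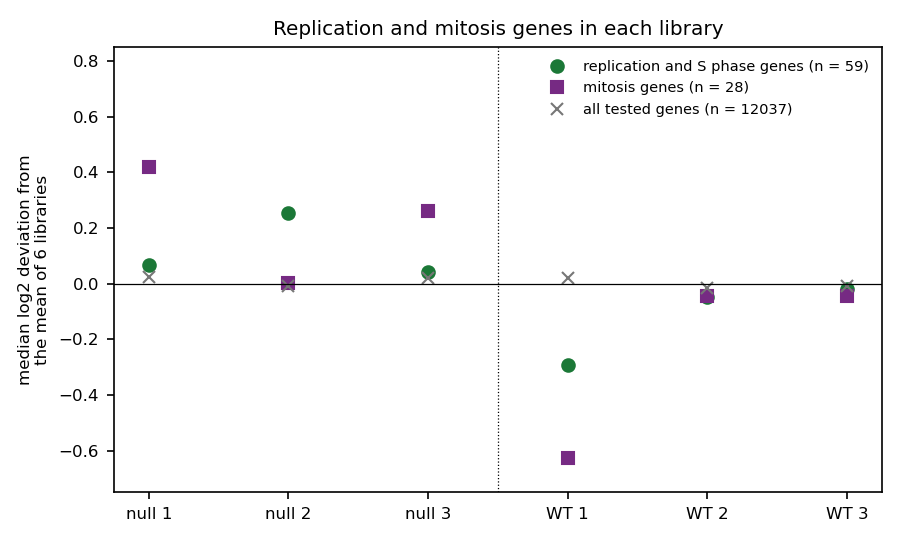
Median log2 deviation of each gene from its mean over the 6 libraries, per library, for 59 replication and S phase genes (circles), 28 mitosis genes (squares) and all 12037 tested genes (crosses). WT 1 is low for both sets, at -0.29 and -0.62, while null 2 is highest for replication genes at 0.25 and near 0 for mitosis genes.

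Of the 28 mitosis genes 0 passed the test by limma and 1 by limma-voom on recovered reads, 11 were higher and 0 lower at an unadjusted p under 0.05, 27 had a log2 fold change above 0, and the median was 0.42, where 6.43% of all tested genes were higher at that p and 54.5% were above 0. With each library left out in turn, 5 to 16 mitosis genes had an unadjusted p under 0.05 and the median ran from 0.23 to 0.54. The count was 5 without WT 1 or null 1, 6 without null 3, 15 without WT 2 or WT 3 and 16 without null 2, and the lowest median was that without WT 1, where 23 genes were above 0. Nusap1, Tpx2 and Ndc80, of the spindle and kinetochore, had the largest log2 fold changes, at 0.91, 0.65 and 0.62, and Cenpf, at -0.18, was the only 1 under 0. Within groups, the median SD of a replication gene on the log2 scale was 0.18 in the null and 0.24 in the WT libraries, and that of a mitosis gene 0.21 and 0.40. Counting error alone gives a median of 0.09 and 0.11 for the replication genes. For all tested genes, which have fewer reads, the median SDs were 0.22 and 0.22 and the counting error 0.14 and 0.15.

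Without WT 1 the median log2 fold change of the 59 genes was 0.16 in place of 0.25, 48 of the 59 were above 0, and 2 were higher and 1 lower at an unadjusted p under 0.05. Without null 2 the median was 0.19 and 51 were above 0. The number that passed the test was 0 without any 1 of the 6 libraries. By promoter, the median was 0.19 for the 17 genes with E2F letters in their window, 0.25 for the 31 without them and 0.25 for the 11 genes with no window.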

How the data were processed

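The libraries were made with an Illumina TruSeq v2 kit, which does not mark strand. The authors deposited RPKM per Entrez gene and library. The submitters' processing notes name CASAVA 1.8.2, TopHat2 2.0.12 and GRCm38, and the counting tool and annotation are not given in the sources used here. Symbols and positions came from RefSeq (GRCm38.p6; 25275 of 27179 genes) and GENCODE M21 (18), and 1886 genes had none. Reads were inferred from the values: each of 16825 genes above 0 gave a whole number to a tolerance of 0.0001 reads, for library sizes of 1947168 to 2381861. Genes whose RPKM averaged 1 or more were tested as log2(RPKM + 1), which understates changes of low genes, with limma 3.58.1 in R 4.3.3 (intensity trend, all 6 libraries, no covariate, Benjamini-Hochberg over 12037 genes, threshold 0.05). The step was tested on simulated data. Values in every library are given for the MCM2-7 subunits, listed cell cycle genes, the 5 largest changes in each direction (only 4 were negative) and the 3 highest and 3 lowest genes, and other genes by role, some of them named after their values were seen. Of the wider replication and mitosis lists, called genes and the 3 largest changes in each direction are named. The 59 genes and the lists were chosen with earlier results of these data known, so their counts are no independent evidence. The alternatives were quantile normalization, median-ratio scaling, limma-voom on recovered reads, a pseudocount of 0.1, a filter at mean RPKM 5 or none, a flat prior variance, a replicate block and leaving out each library. Python 3.11.15, numpy 2.4.6, pandas 2.3.3 and matplotlib were used for the rest. Protein sequences were not used here, and a few marker genes are not reported here.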

Additional observations from a re-analysis of the deposited data

How the results depend on the processing

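None of the 59 replication and S phase genes passed the test under any of the 14 alternatives in which it was tested. Mcm8, at a mean of 4.37 RPKM, was not tested with the filter at mean RPKM 5, which left 58 genes. The lowest adjusted p by limma was 0.14. At an unadjusted p under 0.05, between 1 and 9 of the 59 genes were higher and at most 1 lower. Their median log2 fold change lay between 0.16 and 0.32 with each library left out and was nearest to 0 without WT 1. The replicate numbers did not pair the libraries (correlations of the deviations of same-numbered libraries 0.06, -0.06 and -0.12), and with the replicate block 246 of all tested genes were called, none of them among the 59. With limma-voom on recovered reads, 5 of the other replication genes (with Usp1 and Rb1 added to the 3) and 1 mitosis gene (Nusap1) were called. Calls also rose over all 12037 tested genes, to 543 from 403 in the main test. With each library left out, 203 to 293 of all tested genes and 1 to 3 of the other replication genes were called. Orc1 changed sign, to 0.057 with quantile normalization and 0.007 with limma-voom. With libraries left out, the log2 fold change crossed 0 for 15 of the 59 genes, with ranges of -0.16 to 0.26 for Orc1, -0.057 to 0.247 for Mcm3, -0.013 to 0.345 for Mcm5, -0.027 to 0.060 for Cdt1, -0.466 to 0.007 for Rrm2, -0.004 to 0.234 for Rpa1, -0.005 to 0.196 for Rpa3, -0.09 to 0.26 for Dut, -0.035 to 0.196 for Gins4, -0.035 to 0.24 for Gins3, -0.043 to 0.34 for Chaf1b, -0.012 to 0.267 for Orc5, -0.056 to 0.348 for Orc4, -0.075 to 0.184 for Cdc6 and -0.15 to 0.23 for Ccne2. Of the mitosis genes named above, it crossed 0 for Mki67 and Cenpf, with -0.25 to 0.37 for Mki67 and -0.37 to 0.12 for Cenpf. Over all 14 alternatives, the log2 fold change also crossed 0 for the mitosis genes Cenpe, Aurka and Plk1. The ranges were -0.247 to 0.435 for Cenpe, -0.068 to 0.412 for Aurka and -0.011 to 0.505 for Plk1. The call on E2f2 was lost without null 2, null 3 or WT 1, with adjusted p values by limma of 0.051, 0.0593 and 0.0588. That on Ccnd3 was lost in 8 alternatives, with adjusted p values by limma of 0.0519 to 0.14. The causes were not tested. With 3 libraries a group and 1947168 to 2381861 reads each, the 95% intervals do not exclude a doubling for Mcm8, Rrm1 and Pola1.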
